A study of Mus musculus with 10 samples.

Results

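Genes for chromatin remodellers and histone-modifying enzymes were compared between the spindle-chromosome complex (SCC), the cytoplast that is left when the complex is taken out, and the intact egg, in ovulated mouse eggs, which wait in metaphase II for fertilization (MII oocytes). The 44 listed genes cover subunits of the SWI/SNF remodellers (BAF and PBAF), ISWI, CHD and INO80 remodellers, the core of both Polycomb complexes, shared subunits, and enzymes that write, erase or read histone methylation and acetylation. Each gene was represented by the probe set (a group of short probes for one transcript) with the highest mean log2 intensity over the 10 arrays among those annotated to that gene alone. By that rule 43 of the 44 genes, of 18193 genes on the array, had a value. Suv39h1 had no probe set of its own, and Ring1 lay too low to be tested, which left 42 genes with a test.

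The eggs had matured in female B6D2F1 mice that received eCG and, 48 h later, 5 IU of hCG, hormones given to induce ovulation. They were collected 16 h after the second hormone and stripped of cumulus cells with hyaluronidase. The 3 groups were SCCs removed by microsurgery (3 arrays, replicates 1 to 3), the enucleated cytoplasts (4 arrays, replicates 1 to 4) and intact MII oocytes (3 arrays, replicates 2 to 4), with no treatment or mutation in any of them. The labels call the replicates biological but do not say how many eggs were pooled or whether one pool gave more than one kind of sample. The design asks if transcripts stored by the mother are enriched at the meiotic spindle.

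The full-grown oocyte is transcriptionally silent, and its chromosomes are condensed on the spindle when these samples are taken. Transcripts for chromatin regulators are stored in the egg and serve after fertilization, when the parental chromosomes are repackaged and the embryonic genome is switched on. Remodellers use ATP to slide or evict nucleosomes, Polycomb complexes keep genes repressed through histone H3 methylation (PRC2) and histone H2A ubiquitination (PRC1), and the methyltransferases, demethylases and acetyltransferases set the marks that these complexes read.

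The values are linear array intensities made with RMA, and they compare one probe set between samples, not one gene with another. Since the same amount of labelled cRNA went onto each array after 2 rounds of amplification, a higher value means a larger share of a sample's RNA. A larger share and a larger amount per compartment cannot be told apart. Of 12 oocyte markers, 11 lay above background on every array of each group, with Figla at background. Of 20 markers of cumulus and granulosa cells, 18 lay above background on no array, with Kitl and Nr5a2 as the exceptions. The summed intensity of the 20 was 688 to 837 on SCC arrays, 638 to 758 on cytoplast arrays and 655 to 766 on those of the intact egg. Kitl was above background on 3 of 3 SCC, 2 of 4 cytoplast and 1 of 3 MII oocyte arrays, and Nr5a2 on 2, 3 and 3. The Kitl difference between SCC and cytoplast was 0.73 on the log2 scale (limma, adjusted p = 0.156). Background on an array was the 95th percentile of 33 genes of other tissues, an intensity of 91.1 to 122.9. Of these 33, Cpa1 lay far above that level on every array (2697 to 7441). The level fell between Ins2 and Mbp, whose intensities were 76.90 to 148.7. The other 30 reached at most 72.14 (Cd3e), so the level rests on few genes and is a high one. By that measure 28 of the 43 genes lay above background on every array, 5 on some (Smarcc1, Chd4, Setd2, Kat2a and Brd2) and 10 on none (Smarca2, Smarca4, Smarcc2, Smarcd1, Ino80, Ring1, Ehmt2, Kdm4a, Kdm5b and Kat5). In the 28 the median coefficient of variation among replicates was 13.2% for the SCC, 12.9% for the cytoplast and 22.2% for the intact egg, against 13.2%, 14.5% and 18.4% over 3790 genes that met the same rule.

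Between SCC and cytoplast, 3 genes rose in the SCC and none fell. They were Rnf2 and Bmi1, which encode the catalytic ring-finger protein of PRC1 and its Polycomb partner, and Smarce1, which encodes the BAF57 subunit of BAF and PBAF. Their folds ran from 1.39 to 1.96. The tests were made with limma over all 23737 probe sets kept, and a gene was called at an adjusted p under 0.05. The 3 genes are 7.14% of the 42, beside 8.03% of all 12710 genes tested that were called higher and 0.275% called lower, so the share of calls lay close to that of the array as a whole. At an unadjusted p under 0.05, 11 of the 42 differed, beside 2831 of all 12710 genes. All SCC arrays stood above all cytoplast arrays for 7 genes (16.7%) and below them for 3, beside 15.5% and 5.86% of all genes. The 7 were Rnf2, Bmi1, Smarce1, Eed, Smarca5, Rbbp4 and Suv39h2, and the 3 were Ezh1, Chd4 and Smarcb1.

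The median difference of the 42 genes was 0.12 on the log2 scale, against 0.02 for all genes, with 25 genes above 0 and 17 below (6864 of all 12710 genes lay above 0). Of the 28 genes above background on every array, 22 had a difference above 0 and 6 below. By another rule for bright genes, a mean log2 intensity above 8, 18 of 24 listed genes and 2198 of all 2833 genes lay above 0. In that range the SCC arrays ran higher as a whole. There 3 of the 24 listed genes were called higher (12.5%) against 20.5% of the 2833, and the medians were 0.21 and 0.28. That shift of bright probe sets depends on the scaling between arrays. After cyclic loess the median of the 42 genes was -0.11 with 15 above 0, and after quantile normalization it was -0.09 with 14 above 0. The sign turned from above to below 0 for 10 genes under cyclic loess (Arid2, Chd1, Ezh2, Suz12, Rbbp4, Rbbp7, Sin3a, Ehmt1, Kdm1a and Ep300) and for 11 under quantile normalization (all but Rbbp4 of these, with Smarca5 and Kdm1b), and none turned the other way. The median of all 12710 genes was then -0.0116 after cyclic loess and -0.0325 after quantile normalization. Among bright genes it was -0.0789 and -0.068 for the 24 listed ones, and 0.0084 and -0.0014 for all 2833. None of the 3 calls held under either scaling, and the directions below are therefore given relative to the deposited scaling unless another is named. A measure that did not overlap between SCC and cytoplast arrays was the gap between the 3′ and 5′ probe sets of actin, a sign of RNA integrity and amplification length. It was 3.27 to 3.65 on the log2 scale in the SCC against 3.66 to 5.29 in the cytoplast, with the intact egg at 3.33 to 4.42. The same gap for Gapdh overlapped between the groups (2.32 to 3.23, 2.57 to 3.92 and 3.17 to 3.36), and the part of either in the results was not tested.

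**Figure D1:**
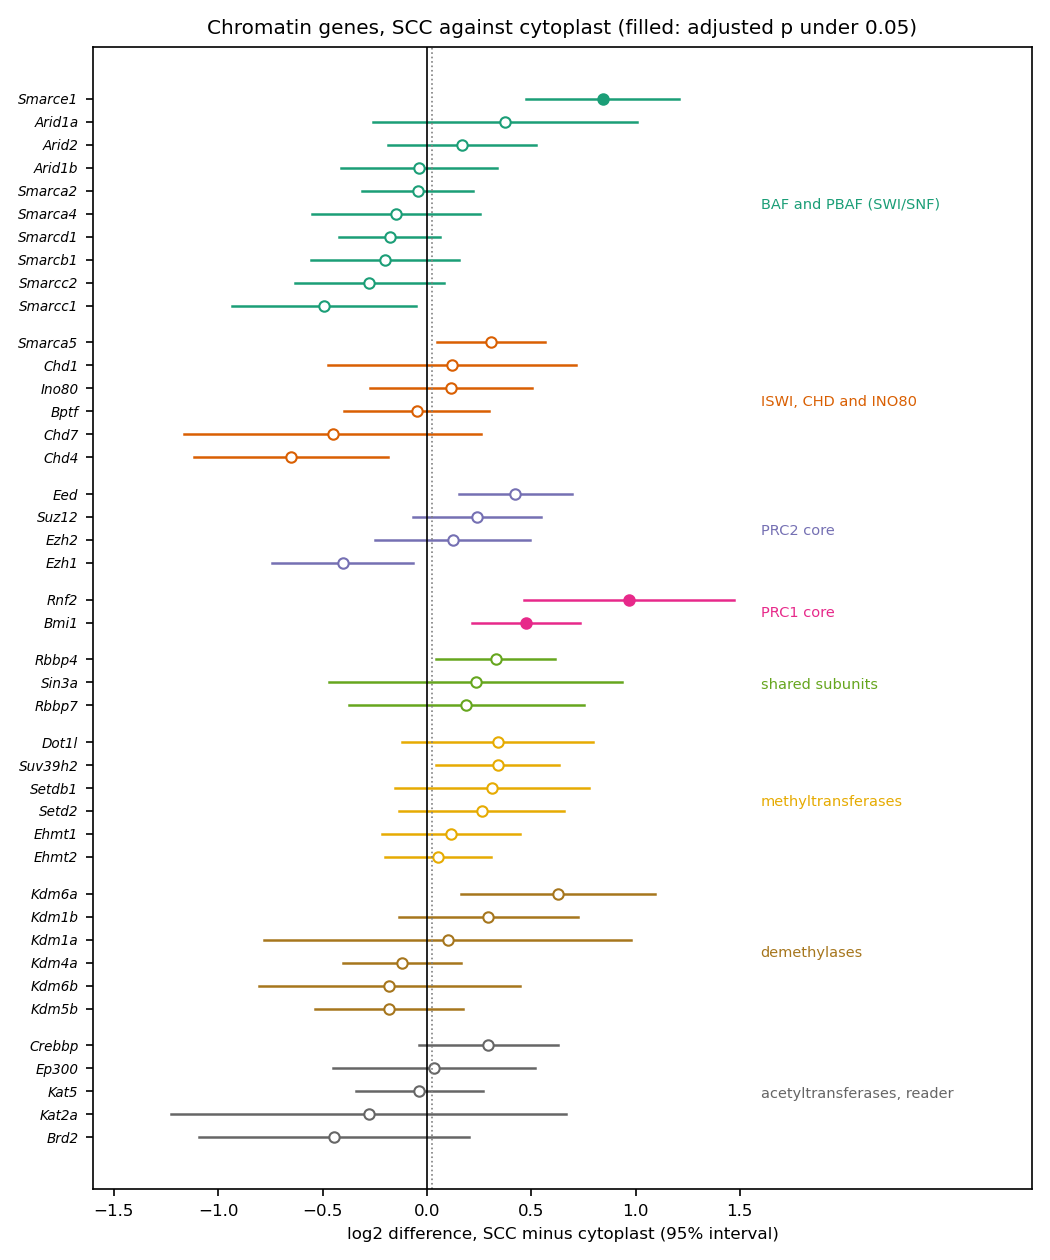
Log2 difference between SCC (3 arrays) and cytoplast (4 arrays) for the 42 tested chromatin genes, grouped by role, with 95% intervals from limma. Filled points passed an adjusted p under 0.05 and the dotted line marks the median of all genes (0.02). Rnf2, Smarce1 and Bmi1 carry the filled points, and Chd4 has the lowest difference (-0.65).

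Both tested genes of the PRC1 core stood above the cytoplast in the SCC. Rnf2, the E3 ligase also called RING1B that ubiquitinates histone H2A, had intensities of 1987, 3059 and 2624 on the SCC arrays, 1270, 1303, 1696 and 972.5 on the cytoplast arrays, and 1154, 2082 and 1577 on the MII oocyte arrays. Every SCC array lay above every cytoplast array, and the highest MII oocyte array lay within the SCC range. The difference was 0.97 on the log2 scale (SE 0.23, 95% interval 0.46 to 1.47), a 1.96-fold rise with an adjusted p of 0.0288. Bmi1, the ring-finger partner that stimulates the ligase, gave 5335, 6617 and 6090 in the SCC, 4416, 4050, 4872 and 3944 in the cytoplast, and 5214, 5111 and 5046 in the MII oocyte. The 3 groups did not overlap, with the SCC highest and the cytoplast lowest. The rise over the cytoplast was 1.39-fold (log2 0.48, SE 0.12, interval 0.22 to 0.73, adjusted p = 0.0337).

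A second probe set of each gene gave a smaller difference that missed the threshold, 0.41 for Rnf2 (adjusted p = 0.171) and 0.27 for Bmi1 (0.217). The SCC arrays lay above the cytoplast arrays in both of them. Ring1, the paralogue of Rnf2, had an intensity of 10.75 to 13.53 on the 10 arrays and was not tested. Under cyclic loess the Rnf2 difference was 0.68 (adjusted p = 0.196) and that of Bmi1 0.15 (0.623). Both calls were lost without SCC 2, SCC 3 or cytoplast 1, 2 or 4 (adjusted p = 0.0517 to 0.146 for Rnf2 and 0.0626 to 0.163 for Bmi1) and held when any other array was left out.

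The 250 bases before the starts of Rnf2 and Bmi1 are shown beside those of Ezh1, a PRC2 gene with a difference below 0. The windows are from RefSeq on GRCm38.p6, read 5′ to 3′ on the gene's strand. Capitals mark the GC box GGGCGG and the E-box CACGTG on either strand, with overlapping matches joined. The Rnf2 window is chr1:151500992-151501241 on the minus strand, the Bmi1 window chr2:18676768-18677017 on the plus strand, and the Ezh1 window chr11:101226464-101226713 on the minus strand.
Rnf2: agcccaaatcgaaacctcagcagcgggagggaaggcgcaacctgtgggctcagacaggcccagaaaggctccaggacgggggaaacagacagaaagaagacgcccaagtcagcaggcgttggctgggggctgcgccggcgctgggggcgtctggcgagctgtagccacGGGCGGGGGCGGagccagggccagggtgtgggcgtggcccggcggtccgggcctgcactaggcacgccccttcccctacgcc
Bmi1: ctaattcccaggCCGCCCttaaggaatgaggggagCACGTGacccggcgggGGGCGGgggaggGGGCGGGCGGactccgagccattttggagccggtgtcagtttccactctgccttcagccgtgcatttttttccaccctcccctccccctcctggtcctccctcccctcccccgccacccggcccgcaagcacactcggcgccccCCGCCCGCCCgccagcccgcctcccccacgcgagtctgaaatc
Ezh1: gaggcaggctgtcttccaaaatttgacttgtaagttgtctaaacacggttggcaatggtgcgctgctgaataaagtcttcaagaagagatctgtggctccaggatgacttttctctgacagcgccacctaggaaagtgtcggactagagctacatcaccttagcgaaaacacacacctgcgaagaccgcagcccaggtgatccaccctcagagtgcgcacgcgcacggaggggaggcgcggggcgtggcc
The Rnf2 window held 20 CpG sites and 2 GC boxes, the Bmi1 window 21 CpG sites, 6 GC boxes (some overlapping) and 1 E-box, and the Ezh1 window 14 CpG sites and no match to the 5 motifs searched. The other motifs searched, also on both strands, were the ETS motif CCGGAAG, the CCAAT box (CCAAT) and the TATA box (TATAAA). In other listed genes the GC box went with the direction of the difference in some and against it in others. The windows of Brd2, Kat2a, Kat5, Kdm4a and Smarcc2, with differences below 0, held no GC box. Kat5, Kdm4a and Smarcc2 lay below background on all arrays. The windows of Eed, Ezh2 and Kdm1a, with differences above 0, held no GC box either. Those of Chd4 and Smarcb1, with differences below 0, held 2 GC boxes each. So did those of Rbbp4 and Rbbp7, with differences above 0. A relation between motif and direction was not tested.

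Of the 44 genes, 39 had a window in the table, and as a group they had the CpG-rich starts usual for widely used genes. Their median was 22 CpG sites (11 to 44), against 6 over 27025 genes, and their median GC content 68.4% against 52.0%. A GC box was present in 30 windows (76.9%, against 32.9% of all), an E-box in 6 (15.4% against 6.05%), the ETS motif in 4 (10.3% against 7.05%) and a CCAAT box in 11 (28.2% against 34.5%). No window held TATAAA, which 13.0% of all windows hold. These are matches of letters only, and the arrays measured stored transcripts, not the use of these promoters.

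**Figure D2:**
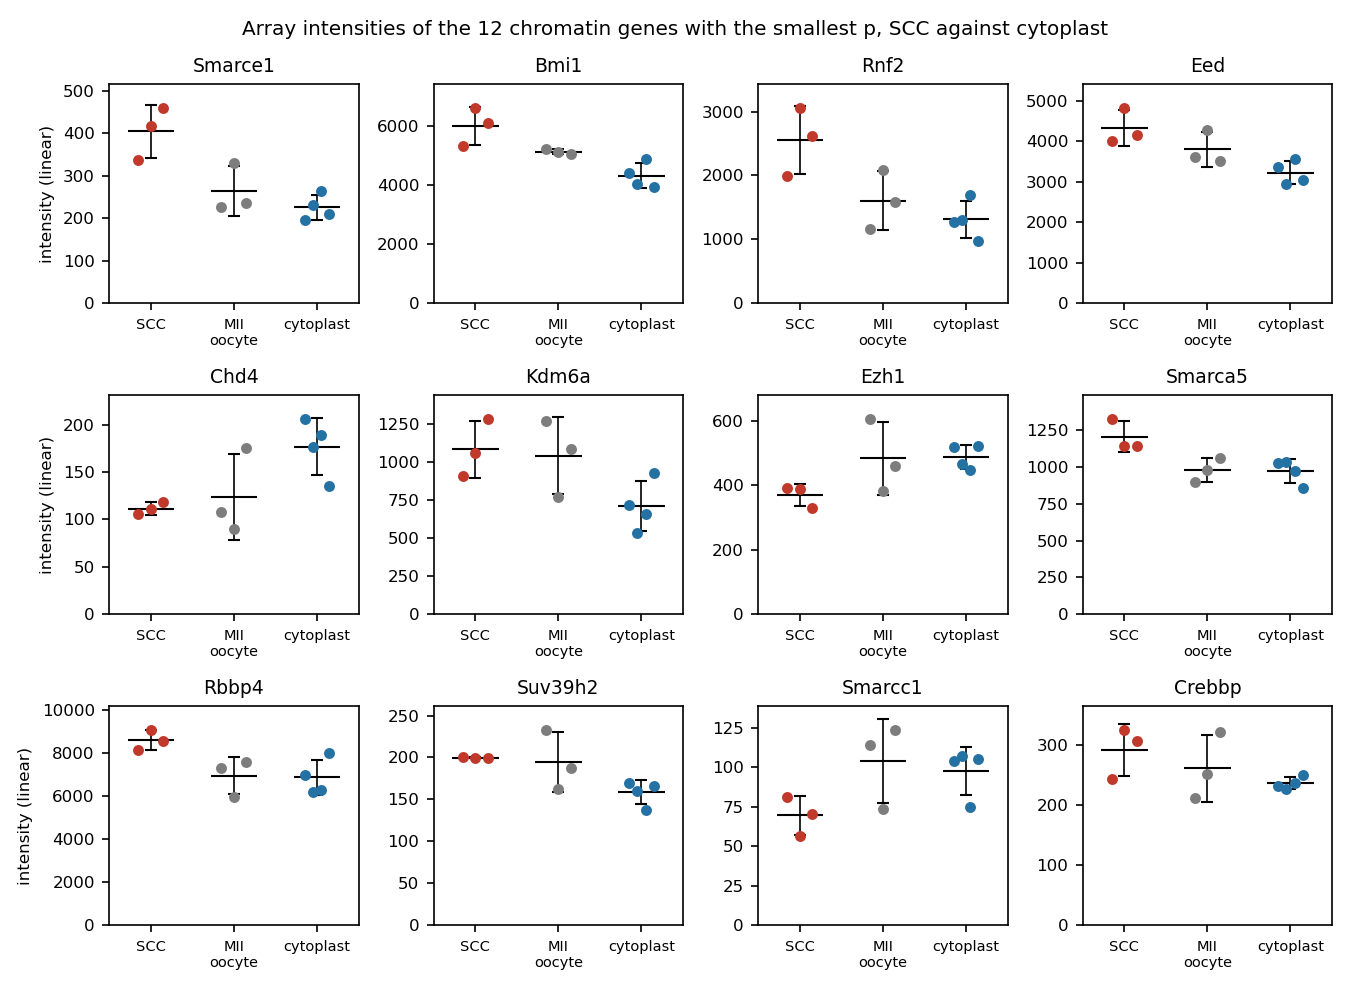
Linear array intensity of the 12 chromatin genes with the smallest p between SCC and cytoplast, on every array of the SCC (3), the MII oocyte (3) and the cytoplast (4), with the group mean as a bar and 1 SD as whiskers. Each panel has its own axis from 0. Rnf2, Bmi1 and Smarce1 have all SCC points above all cytoplast points, while Ezh1 and Chd4 have them below.

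In the PRC2 core no gene passed the test. Eed, the subunit that binds methylated histone H3, gave 4009, 4827 and 4158 in the SCC, 3355, 2953, 3552 and 3052 in the cytoplast, and 3601, 4290 and 3509 in the MII oocyte. All SCC values lay above all cytoplast values, and the MII oocyte arrays overlapped with both. The difference was 0.42 (interval 0.15 to 0.69, adjusted p = 0.0649). Ezh1, one of the alternative methyltransferase subunits, gave 389.4, 387.1 and 328.4 in the SCC, 517.1, 463.9, 445.5 and 521.3 in the cytoplast, and 605.2, 382.5 and 459.7 in the MII oocyte. The SCC arrays lay below every cytoplast array. Its difference was -0.40 (SE 0.15, adjusted p = 0.156), and it was the gene called lower under cyclic loess (-0.64, adjusted p = 0.0476) and one of those under quantile normalization (-0.71, 0.0405).

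Ezh2, the main H3 lysine methyltransferase of PRC2 and a protein that oocytes supply to the embryo, was bright in all groups and overlapped between them. It gave 4395, 5065 and 4456 in the SCC, 4704, 3755, 3848 and 4785 in the cytoplast, and 5352, 3376 and 5138 in the MII oocyte. The difference was 0.12 with an interval of -0.25 to 0.50 (adjusted p = 0.761), and it was -0.19 under cyclic loess and -0.14 under quantile normalization. Suz12, which holds the complex together, had 6 kept probe sets whose differences ran from -0.25 to 0.67. The one with the highest mean gave 0.24 (adjusted p = 0.384), and none of the 6 passed.

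Among the 10 BAF and PBAF subunits, 1 was called higher and none lower. Of the 5 that lay above background on every array (Smarce1, Smarcb1, Arid1a, Arid1b and Arid2), 3 had differences above 0 and 2 below. Smarce1, the DNA-binding HMG-box subunit, gave 335.9, 417.8 and 459.4 in the SCC, 196.5, 231.8, 262.8 and 209.0 in the cytoplast, and 225.7, 330.3 and 234.7 in the MII oocyte. All SCC arrays lay above all arrays of both other groups. The rise over the cytoplast was 1.79-fold (log2 0.84, SE 0.17, interval 0.47 to 1.21, adjusted p = 0.0148). A second kept probe set of Smarce1 lay below background on every array and gave 0.06 (adjusted p = 0.888). The call was lost under cyclic loess (0.63, adjusted p = 0.098) and quantile normalization (0.55, 0.134), and without SCC 2 (0.0787), SCC 3 (0.089) or cytoplast 1 (0.0529).

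The core subunits that Smarce1 joins did not pass. Smarcc1, the BAF155 scaffold, gave 80.99, 56.64 and 70.70 in the SCC, 103.8, 106.9, 75.05 and 105.3 in the cytoplast, and 114.4, 73.79 and 123.7 in the MII oocyte. The SCC arrays were all below background, so no fold is given, and they overlapped with cytoplast 3 (log2 difference -0.49, adjusted p = 0.188). Smarcb1, a core subunit known as a tumour suppressor, lay lower on every SCC array (362.7 to 405.0) than on any cytoplast array (412.3 to 461.4), with a difference of -0.20 (adjusted p = 0.566). Smarca4, the BRG1 ATPase that the early mouse embryo needs from the egg, lay below background on all arrays (intensity 46.7 to 82.6), as did Smarca2, its BRM paralogue, so that no level of either ATPase could be compared. Of the large ARID subunits, Arid2 of PBAF had intensities of 3145 to 4796 with a difference of 0.17 (adjusted p = 0.644), Arid1a 0.38 (0.537) and Arid1b -0.04 (0.942).

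Of the ISWI, CHD and INO80 remodellers none passed. Smarca5, the ISWI ATPase SNF2H, gave 1327, 1145 and 1143 in the SCC, 1026, 1036, 975.7 and 857.5 in the cytoplast, and 899.9, 978.1 and 1062 in the MII oocyte. Every SCC array lay above every array of both other groups, by 1.24-fold over the cytoplast (log2 0.31, adjusted p = 0.159). Under quantile normalization its difference was -0.01. Bptf, the NURF subunit that reads methylated H3, was bright on all arrays (8307 to 13140) with a difference of -0.05 (interval -0.40 to 0.30). A dimmer Bptf probe set, also above background throughout, gave 1514 to 1749 in the SCC and 1897 to 2926 in the cytoplast, without overlap. Its difference was -0.47 (interval -0.91 to -0.04, adjusted p = 0.204). Further ones gave -0.14 (adjusted p = 0.673) and, below background on all arrays, -0.44 (0.355). The probe sets of Bptf thus differed in the size of the difference, and none passed.

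Chd4, the NuRD ATPase, had the lowest difference of the 42 genes. It gave 105.2, 110.8 and 118.1 in the SCC, 206.1, 176.0, 189.4 and 135.3 in the cytoplast, and 107.4, 89.34 and 175.2 in the MII oocyte. The SCC arrays lay below every cytoplast array, and 1 of 3 was above background against 4 of 4. The log2 difference was -0.65 (SE 0.21, adjusted p = 0.096). It passed under quantile normalization (-0.85, adjusted p = 0.0432), and its other kept probe sets, all below background, gave -0.16 and -0.27. Chd7, a CHD remodeller of developmental enhancers, gave 886.4, 790.3 and 1014 in the SCC, 1329, 1046, 893.0 and 1786 in the cytoplast, and 1566, 602.4 and 1581 in the MII oocyte. The groups overlapped and the spread among cytoplast arrays was wide (log2 difference -0.45, adjusted p = 0.5). Chd1, which keeps chromatin open in embryonic stem cells, gave 0.12 (adjusted p = 0.87) and Ino80 stayed below background.

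None of the shared subunits passed on the probe set used. Rbbp4, a histone-binding WD-repeat protein found in PRC2, NuRD and Sin3 complexes, gave 8125, 9061 and 8553 in the SCC, 6953, 6200, 6278 and 7979 in the cytoplast, and 7274, 5960 and 7566 in the MII oocyte. All SCC arrays lay above all others, by 1.26-fold over the cytoplast (log2 0.33, interval 0.05 to 0.61, adjusted p = 0.17). Under cyclic loess that difference was -0.0023. Dimmer probe sets gave 0.56 (adjusted p = 0.0389), 1.07 (0.00628) and 0.02 (0.969), so they differed in the size of the difference. All lay below background on all arrays, apart from 1 SCC array for the first of them, so no fold is given. Rbbp7, its paralogue, ranged from 13950 to 27290 with a difference of 0.19 (adjusted p = 0.76). Sin3a, the scaffold of a deacetylase complex, gave 0.23 (0.762).

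None of the 6 tested histone methyltransferases passed on the probe set used. The 4 that lay above background on every array (Suv39h2, Dot1l, Setdb1 and Ehmt1) had differences of 0.12 to 0.34, all above 0. No share above 0 was taken over all genes by that rule. By the mean log2 rule, which Suv39h2, Dot1l and Setdb1 do not meet, 2198 of all 2833 genes lay above 0. Suv39h2, which methylates histone H3 lysine at pericentric heterochromatin, gave 200.3, 199.9 and 199.3 in the SCC, 169.8, 160.0, 137.7 and 166.2 in the cytoplast, and 232.9, 162.1 and 187.8 in the MII oocyte. The SCC arrays lay just above every cytoplast array and within the range of the MII oocyte (log2 difference 0.34, adjusted p = 0.177).

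A dimmer probe set of Suv39h2 separated SCC and cytoplast more widely. It gave 180.2, 176.3 and 196.7 in the SCC, 91.22, 101.0, 97.02 and 93.94 in the cytoplast, and 119.2, 142.2 and 118.9 in the MII oocyte. The 3 groups did not overlap, with the intact egg between the SCC and the cytoplast. Above background were 3 of 3 SCC, 1 of 4 cytoplast and 3 of 3 MII oocyte arrays, and with each cytoplast array set to at least its background the SCC was at least 1.81-fold higher. On the values as measured the log2 difference was 0.94 (SE 0.11, adjusted p = 0.00283). It passed under all alternatives in which it could be fitted, including cyclic loess (0.80, adjusted p = 0.0134) and quantile normalization (0.76, 0.0176). The dimmest gave 90.93, 112.8 and 123.4 in the SCC, 68.80, 68.76, 71.79 and 51.91 in the cytoplast, and 82.03, 66.81 and 78.07 in the MII oocyte. The SCC arrays lay above both other groups (log2 difference 0.74, adjusted p = 0.0165), but only 1 of them exceeded background, so no fold is given. That call was lost without SCC 2 (adjusted p = 0.0851) or SCC 3 (0.0947). The listed genes had 90 kept probe sets, of which 42 were those used. Of the rest, 4 were called higher (2 each of Suv39h2 and Rbbp4) and 0 lower, beside 6.74% and 0.274% of all probe sets. The probe sets thus disagreed on the size of the difference, and both further ones were singled out after their values were seen.

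The other methyltransferases overlapped between the groups. Dot1l, the H3 methyltransferase that acts on the nucleosome core, gave 0.34 (adjusted p = 0.417), Setdb1, which silences retroelements, 0.31 (0.474), and Setd2, which marks transcribed gene bodies and is needed in the oocyte, 0.26 (0.476). Setd2 lay above background on 1 MII oocyte array and on no other. Ehmt1, the GLP partner of the H3 methyltransferase G9a, gave 0.12 (adjusted p = 0.749). Ehmt2, which encodes G9a, stayed below background on all arrays (difference 0.06, adjusted p = 0.855).

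**Figure D3:**
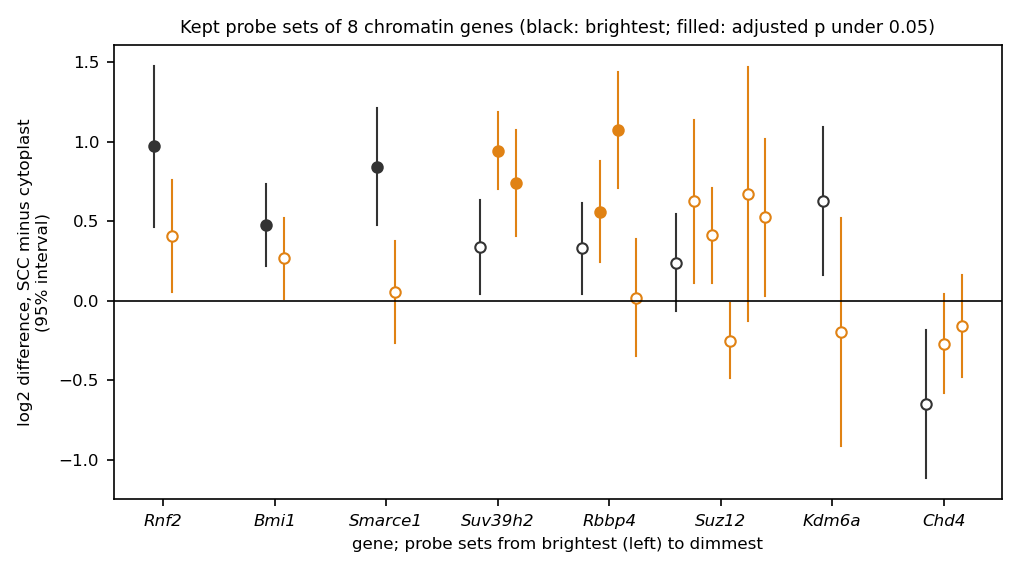
Log2 difference between SCC and cytoplast, with 95% intervals, for every kept probe set of 8 chromatin genes, ordered from the brightest (black, the one used) to the dimmest. Filled points passed an adjusted p under 0.05. The 2 filled Suv39h2 points (0.94 and 0.74) lie above its brightest probe set (0.34), and for Rnf2, Bmi1 and Smarce1 the filled point is the brightest.

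No demethylase passed. Kdm6a, the X-linked demethylase UTX that removes the mark set by PRC2, gave 909.3, 1059 and 1283 in the SCC, 718.6, 531.2, 660.1 and 924.2 in the cytoplast, and 1271, 766.7 and 1086 in the MII oocyte. Only cytoplast 4 reached into the SCC range, and the difference was 0.63 (SE 0.21, adjusted p = 0.109). Another bright probe set of Kdm6a gave -0.19 (adjusted p = 0.812). Kdm1b, a demethylase that the growing oocyte needs to set maternal imprints, gave 1813, 2319 and 2038 in the SCC, 1714, 1461, 2297 and 1353 in the cytoplast, and 1679, 2454 and 1725 in the MII oocyte. The groups overlapped (log2 0.29, adjusted p = 0.461), and under quantile normalization the difference was -0.02.

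Kdm1a, the LSD1 demethylase and a maternal-effect gene in mouse, differed by 0.10 (adjusted p = 0.933). Its interval of -0.78 to 0.98 is wide, with arrays of one group as far apart as 656.2 on cytoplast 3 and 1959 on cytoplast 4. Kdm6b, the inducible relative of Kdm6a, gave -0.18 (0.8). Kdm4a and Kdm5b, which demethylate H3 at other lysines and act early in the mouse embryo, stayed below background on all arrays, Kdm5b with intensities of 20.9 to 38.1 and a difference of -0.18 (adjusted p = 0.609).

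Nor did any of the acetyltransferases or the acetyl reader Brd2 pass. Crebbp, the CBP coactivator, gave 243.1, 324.8 and 306.7 in the SCC, 231.5, 226.8, 236.0 and 249.9 in the cytoplast, and 210.8, 251.8 and 320.6 in the MII oocyte. SCC 1 lay within the cytoplast range and the other two SCC arrays above it (log2 0.29, adjusted p = 0.317). With the mean over its probe sets the difference was -0.09. Brd2, a bromodomain protein that binds acetylated histones, gave 97.74, 86.48 and 107.6 in the SCC, 160.4, 129.6, 103.3 and 141.0 in the cytoplast, and 123.5, 60.96 and 183.4 in the MII oocyte. SCC 3 reached into the cytoplast range, and the difference was -0.45 (adjusted p = 0.458). Ep300, the paralogue of Crebbp, gave 0.03 (interval -0.45 to 0.52). Kat2a, the GCN5 enzyme of SAGA, gave -0.28 with an interval of -1.23 to 0.67, the least precise value of the 42 (SE 0.43), and Kat5 stayed below background.

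**Figure D4:**
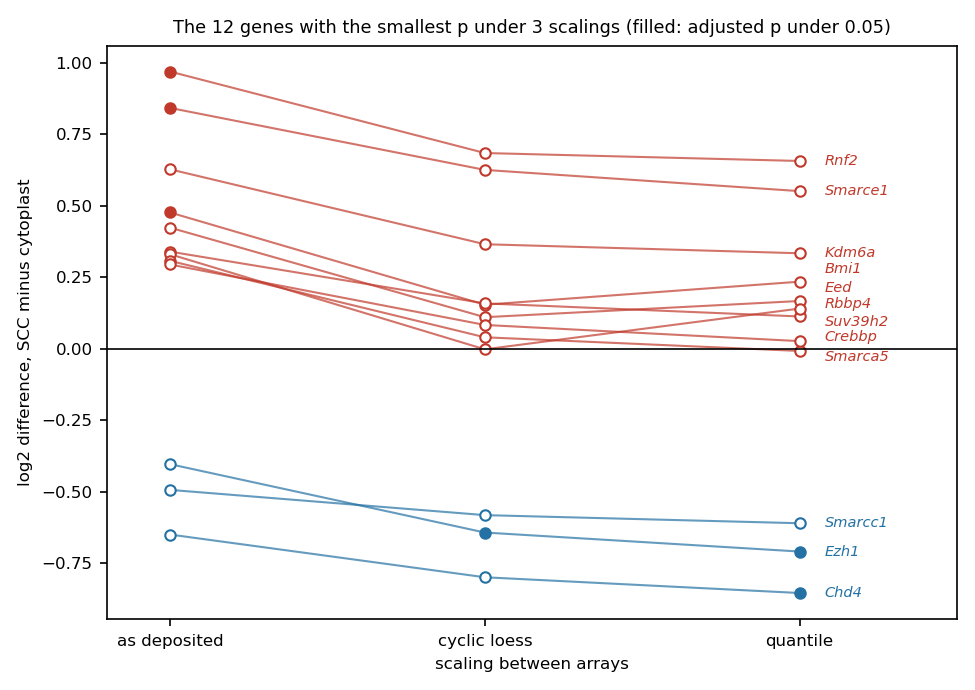
Log2 difference between SCC and cytoplast of the 12 genes with the smallest p, as deposited, after cyclic loess and after quantile normalization. Filled points passed an adjusted p under 0.05. The 3 genes called as deposited (Rnf2, Smarce1 and Bmi1) are open under both other scalings, and Ezh1 becomes filled below 0, with Chd4 filled under quantile normalization.

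Against the intact egg none of the 42 genes passed in either direction, and few genes of the whole array did (0.0472% of 12710 genes and 0.0421% of probe sets higher in the SCC, 0% lower). At an unadjusted p under 0.05 there were 6, beside 1688 of all 12710 genes, and the median difference was -0.02. All SCC arrays lay above all MII oocyte arrays for 4 genes (9.52%, beside 9.14% of all genes), which were Smarce1, Smarca5, Bmi1 and Rbbp4, and below them for Smarca2, which was under background (5.27% of all genes were lower in this way). The differences of the first 4 were 0.63 (adjusted p = 0.181), 0.30 (0.371), 0.23 (0.525) and 0.31 (0.397). For Rnf2 the difference from the intact egg was 0.69 (interval 0.15 to 1.23, adjusted p = 0.275). The intact egg holds both compartments, so these are comparisons of a part with a whole that includes it.

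Between the cytoplast and the intact egg none of the 42 genes passed, nor did any gene of the array (0% in each direction). With an unadjusted p under 0.05 there were 3, beside 595 of all 12710 genes. They were Chd4 (0.55), Kdm5b (0.46) and Kdm6a (-0.55), each at an adjusted p of 0.926. Kdm5b was below background on all arrays, so its groups cannot be compared, and the arrays of Chd4 and of Kdm6a overlapped between the groups. The median was -0.11, against -0.06 for all genes. Arrays that did not overlap were seen for Kdm5b above the egg (1.68% of all genes were higher in this way) and for Bmi1 and Smarca2 below it (4.5% of all genes), of which Bmi1 alone lay above background. All 3 comparisons draw on one set of 10 arrays, so each pair of them shares a group.

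Across the 3 groups, some of the chromatin genes showed a tie to the level of the controls spiked in at hybridisation. Kat2a gave 59.05, 51.58 and 62.74 in the SCC, 94.50, 51.92, 42.42 and 114.5 in the cytoplast, and 125.9, 36.68 and 124.5 in the MII oocyte. It lay above background on 0 of 3 SCC, 1 of 4 cytoplast and 2 of 3 MII oocyte arrays. Kdm1a gave 1087, 963.2 and 1429 in the SCC, 1238, 813.7, 656.2 and 1959 in the cytoplast, and 2059, 699.5 and 1724 in the MII oocyte. In both genes SCC 3, cytoplast 4 and MII oocyte 2 and 4 were the highest of their groups, and on these arrays the mean log2 of the controls was 11.11 to 11.32, against 9.87 to 10.68 on the other 6.

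With the control level as a covariate beside the groups, 14 of the 42 genes rose with it (limma, adjusted p under 0.05) and none fell. Over all 12710 genes 10.1% rose and 1.38% fell. No share was taken for bright genes alone, though 24 of the 42 are bright by the mean log2 rule above. The steepest were Kat2a (0.89 log2 units per log2 unit of control, adjusted p = 0.0133), Kdm1a (0.88, 0.00586), Chd7 (0.68, 0.00936) and Sin3a (0.66, 0.0128), and the others were Rbbp7, Arid1a, Brd2, Kdm6b, Chd1, Dot1l, Setdb1, Kdm6a, Ep300 and Ino80, the last below background on all arrays. Rnf2 (-0.29, adjusted p = 0.218), Smarce1 (-0.14, 0.468) and Bmi1 (-0.04, 0.813) did not pass. In the same fit 5 genes passed as higher in the SCC than the cytoplast, Smarce1, Rnf2 and Bmi1 together with Eed (0.42, adjusted p = 0.032) and Kdm6a (0.65, 0.0104). Over the whole array that fit called 2767 of 23737 probe sets higher, against 1599 without the covariate, so the calls rose across the array. The tie was looked for after the values had been plotted, and no label names a batch that it could stand for.

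**Figure D5:**
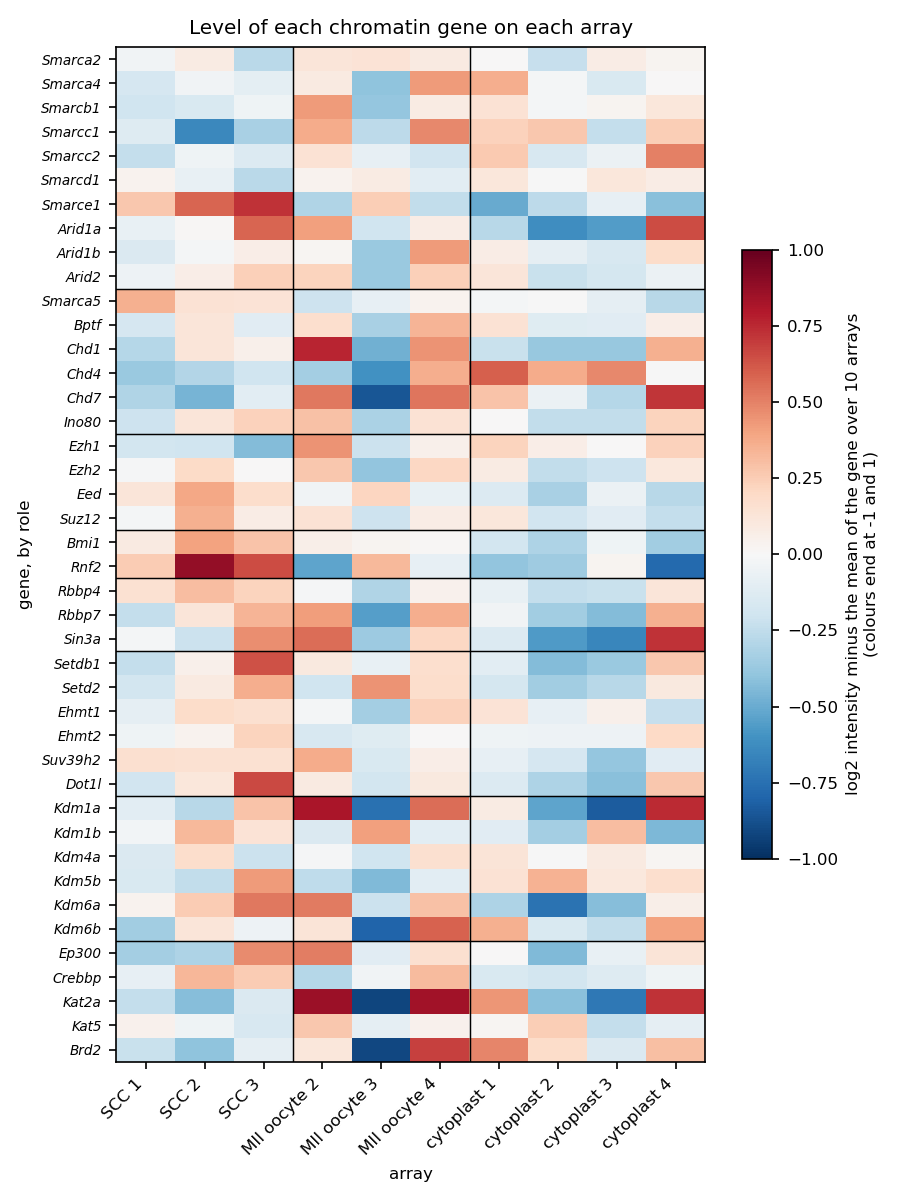
Log2 intensity of each of the 42 tested chromatin genes on each array, minus the gene's mean over the 10 arrays, with genes grouped by role and arrays by kind of sample (colours end at -1 and 1). Rnf2, Smarce1 and Bmi1 lie above their mean on every SCC array, Bmi1 only slightly so on SCC 1. Kat2a, Kdm1a, Sin3a and Chd7 are instead red on MII oocyte 2 and 4 and cytoplast 4, and blue on MII oocyte 3 and cytoplast 3.

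The wider chromatin machinery was described with 109 further genes of the same families, of which 97 were tested. Against the cytoplast, 14 of them were higher in the SCC (14.4%, beside 8.03% of all genes and 20.5% of the bright ones) and 1 lower, with a median difference of 0.10. The 15 calls fell to 1 after cyclic loess or quantile normalization, to 2 without SCC 2, 1 without SCC 3, 4 without cytoplast 1 and 5 without cytoplast 2. By family the calls were 2 of 15 other Polycomb genes, 2 of 11 BAF and PBAF genes, 3 of 23 ISWI, CHD, NuRD, INO80 and SRCAP genes, 4 of 21 methyltransferases and their partners (3 higher and 1 lower), 1 of 11 demethylases and 3 of 16 acetyltransferases and readers. The largest rise was that of Pcgf1, the ring-finger protein that pairs with Rnf2 in a variant PRC1. It had a mean of 714.8 ± 101 in the SCC (SD, n = 3) and 335.7 ± 80.1 in the cytoplast (n = 4), a 2.16-fold difference (limma, adjusted p = 0.0126). It also passed after cyclic loess (0.87, adjusted p = 0.0304) and quantile normalization (0.81, 0.0471), but not without SCC 2 (0.0759) or SCC 3 (0.0551).

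Aebp2, a PRC2 accessory subunit, rose 1.62-fold, from 1337 ± 77.2 in the cytoplast (n = 4) to 2168 ± 233 in the SCC (n = 3), with an adjusted p of 0.00736 in limma. It passed without any one array (adjusted p = 0.00576 to 0.0476) but not after cyclic loess (0.0916) or quantile normalization (0.129). Of the remodelling families, Hells, a helicase required for DNA methylation, rose 1.84-fold (adjusted p = 0.0183), Baz1a, the partner of Smarca5 in the ACF complex, 1.79-fold (0.0157), and Phf10, a PBAF subunit, 1.51-fold (0.0147). Among genes of histone marks, Kmt2c, an H3 methyltransferase of enhancers, rose 1.69-fold (0.0132), Wdr5, a subunit shared by the same enzyme family, 1.52-fold (0.0295), Hat1, which acetylates new histone H4, 1.68-fold (0.028), and Ing3 and Ing5, readers in acetyltransferase complexes, 1.63-fold (0.0143) and 1.72-fold (0.0182). Of these 10 genes the one to pass under cyclic loess or quantile normalization was Pcgf1. Kdm5c, Ep400, Brd7 and Rbbp5 were the other 4 called higher, and Kmt2e, below background on all SCC and cytoplast arrays, was the one called lower.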

How the data were processed

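Intensities of 45101 probe sets were measured on 10 Affymetrix arrays and deposited as linear values made with RMA, per the submitters' processing notes. The RMA version and its settings were not given in the sources used here. Sequencing depth does not apply to arrays, and precision is set by the 3, 4 and 3 arrays of the groups, which were taken from the sample titles. Array medians were 15.58 to 16.58 and 95th percentiles 520.7 to 787.7. The 3 groups were fitted together on log2 values with limma 3.58.1 in R 4.3.3 (1 mean per group, two-sided, Benjamini-Hochberg over 23737 probe sets above the array median on at least 3 arrays). The table proved linear, so log2 was taken first. Apart from 64 controls, 34945 probe sets had 1 gene, 932 several and 9160 none; 34741 of the first matched RefSeq by gene ID. The listed genes, gene lists and tests were chosen with earlier results of these data known. Values on every array are given for genes called in any comparison, the 12 of smallest p in SCC against cytoplast, and the 3 with the largest falls above background; 5 (Smarca4, Ezh2, Kdm1b, Ehmt2, Kdm5b) are named in any case, and of the 109 further genes the 10 called with the smallest p. Kat2a and Kdm1a were added for the control level. Other scalings, filters, fits, probe set rules and leaving out each array were tried. The procedure was tested on simulated data. The labels do not tie replicates to separate animals, so p-values cover only the spread among samples, which may be technical.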

Additional observations from a re-analysis of the deposited data

Results flagged for a closer look

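Of the 43 chromatin genes with a value, 2 had a cytoplast array whose distance from the other 3 exceeded Dixon's 95% critical value for 4 samples, a limit that chance passes in about 1 of 20 groups. For Smarcc1 it was cytoplast 3, at 75.05 against 103.8 to 106.9 on the others, with a gap of 0.918 of the range. For Ehmt2 it was cytoplast 4, at 50.38 against 42.28 to 42.58, with a gap of 0.96. Cytoplast 3 is the array that let Smarcc1 overlap with the SCC, and all Ehmt2 values lay below background.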

How the results depend on the processing

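The 3 genes called higher in the SCC than the cytoplast became 0 after cyclic loess and 0 after quantile normalization, 6 with array quality weights, 5 with the control level as covariate (Eed and Kdm6a added) and 5 with the mean of a gene's probe sets, and ranged from 0 to 4 when single arrays were left out. The count was 0 without cytoplast 1, SCC 2 or SCC 3 and 1 without cytoplast 2. The genes lower in the SCC (0) became 1 after cyclic loess (Ezh1), 2 after quantile normalization (Ezh1 and Chd4), 1 with only the 2 groups compared (Chd4) and 2 with array weights (Smarcc1 and Chd4), and 0 to 1 without single arrays. Against the MII oocyte, 1 gene was higher with array weights, and 0 to 1 without single arrays (1 without MII oocyte 3). The 15 calls among further chromatin genes became 1 after either scaling and 1 to 18 without single arrays. Probe sets called higher over the whole array fell from 1599 to 503 after cyclic loess and 419 after quantile normalization, while those called lower went from 65 to 120 and 153. With array quality weights 3030 were called higher and 482 lower, and with the control level as covariate 2767 and 293. With the mean of a gene's probe sets, 1007 of 12713 genes were called higher and 41 lower. Of the 42 differences from the cytoplast, 10 changed sign after cyclic loess and 11 after quantile normalization, none of them called. Among the genes named by rule these were Smarca5 (-0.008, quantile), Rbbp4 (-0.0023, cyclic loess), Ezh2 (-0.19 and -0.14, cyclic loess and quantile) and Kdm1b (-0.016, quantile). Crebbp (-0.092, mean of probe sets) and Ehmt2 (-0.0198 without SCC 3, up to 0.1178 without cytoplast 4) also changed sign, and the cytoplast minus MII oocyte difference of Smarce1 became 0.048 with the mean of probe sets. None of these differences had passed, and the cause was not tested. With the replicate number as a block 2 genes were higher (Rnf2 and Smarce1; Bmi1 had an adjusted p of 0.0753), but numbers did not pair the arrays: residuals of 8 same-numbered pairs correlated at -0.304 to 0.614, and 3 of 10 arrays correlated best with one of their own number. Bmi1 also missed the threshold with an intensity trend in the moderation (0.057) and with the mean of its probe sets (0.0564). No filter and a 75th percentile filter gave the same 3 genes.

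Signal over background limits 10 of the 43 genes, whose groups cannot be compared at the background level used, which Ins2 and Mbp set. Standard errors of the 42 differences ran from 0.11 to 0.43 on the log2 scale, with a median of 0.17.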
